A study of Mus musculus with 2 samples.

Results

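Potassium channel genes were examined in DNase-seq of mouse frontal cortex, an assay in which the nuclease DNase I cuts open chromatin and the cut ends are sequenced. Members were the protein-coding genes of GENCODE M21 on assembly mm10 whose symbol is Kcn, subfamily letters, a number and at most 1 further letter. This gave 93 of the 21755 protein-coding genes on the autosomes and the X chromosome, in 20 subfamilies. The 2 libraries came from frontal cortex tissue of female B6CASTF1/J mice, F1 hybrids of B6 and CAST, at 10 days of age. Both belong to 1 group, as biological replicates 1 and 2, but the labels give 1 donor identifier for the pair. The mark "3x" in the labels is unexplained, so it is not known here whether animals were pooled. The agreement of the libraries therefore measures only the spread between these samples, which may be technical, and no condition was compared.

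Potassium channels let potassium ions leave the cell, which sets the resting potential, ends the action potential and limits how fast a neuron fires. Voltage-gated channels open on depolarization, calcium- and sodium-activated channels follow ion entry, inward rectifiers and the tandem-pore K2P channels hold the resting potential, and auxiliary subunits tune the pores they bind. In the cortex at this age, neurons are still acquiring the fast and adapting firing of the adult, and astrocytes are acquiring their potassium uptake.

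Replicate 1 held 104654 peaks and replicate 2 held 81654. Each peak carries a signal assigned by the authors, in units whose scaling was left unstated, and the depth behind it is unknown. A promoter was counted as open if a peak overlapped the 500 bp on either side of a transcript start annotated for the gene. Its promoter signal was that of the strongest such peak, or 0 with no peak. In bulk tissue, fewer cells of a type and a less accessible site in each cell cannot be told apart. Tissue markers were checked the same way: promoters of 5 and 4 of 5 excitatory neuron genes, 3 and 3 of 4 inhibitory neuron genes and 4 and 2 of 4 astrocyte genes were open in replicates 1 and 2. Of 4 markers each, oligodendrocyte genes had 1 and 1 open, microglial genes 2 and 2, mural genes 2 and 2, and endothelial genes 4 and 1. None of 4 liver genes was open in either library, and skeletal muscle genes had 1 and 0 of 4. Throughout, pairs of values are given in the order replicate 1, replicate 2.

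Most potassium channel promoters were open, but few were strongly so. A peak lay at the promoter of 79 and 72 of 93 members in replicates 1 and 2, that is 84.9% and 77.4%, where 66.6% and 63.8% of all protein-coding genes were open. Both libraries had a peak at 72 members (77.4%, beside 63.3% of all genes), 7 were open in replicate 1 alone, 0 in replicate 2 alone and 14 in neither. The median promoter signal over all 93 members, closed ones at 0, was 1.11 and 1.24, below the 1.42 and 1.60 over all genes. Only 6 members in each library exceeded the signal that bounds the top 25% of genes, 4.20 and 4.66. With the strongest 50% of the peaks of each library alone, 64 and 60 members were open, beside 60.9% and 57.8% of all genes, a smaller difference. Those shares and medians are a description, since genes are not replicates and the members were chosen by name.

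**Figure D1:**
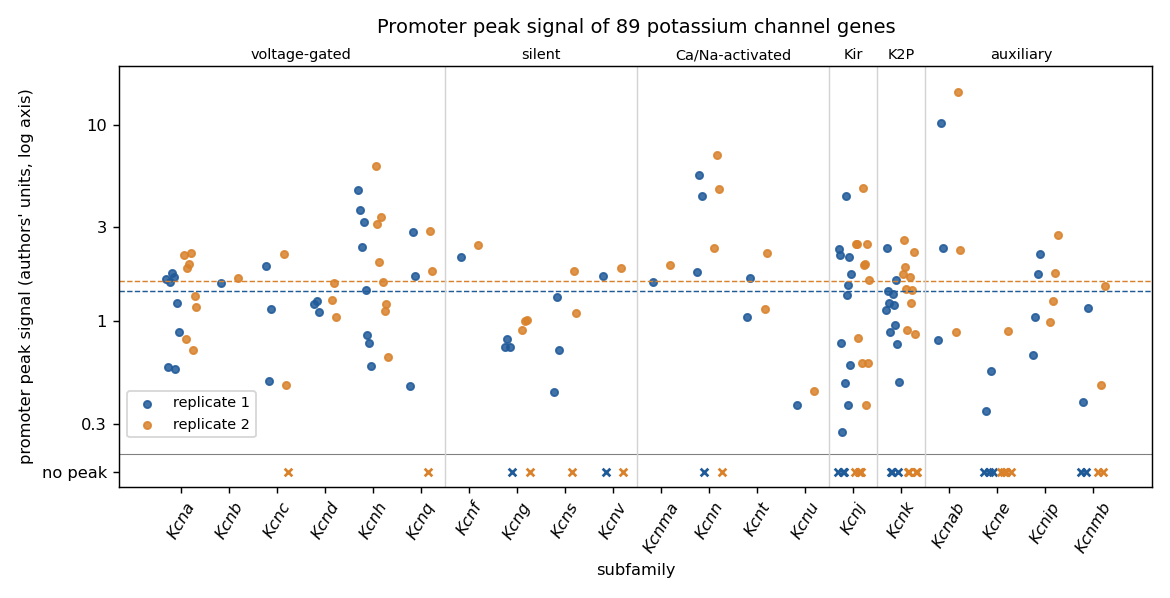
Promoter peak signal of 89 members (log axis, authors' units) by subfamily, replicate 1 in blue and replicate 2 in orange, crosses for no peak, dashed lines at the medians of all protein-coding genes (1.42 and 1.60). Crosses in both libraries mark 3 of 15 Kcnj, 3 of 14 Kcnk, 3 of 5 Kcne and 2 of 4 Kcnmb genes. Over all protein-coding genes, 7146 of 21755 had no peak in either library. Kcnab2 stands highest at 10.2 and 14.6.

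All 30 voltage-gated pore genes of the Kcna, Kcnb, Kcnc, Kcnd, Kcnh and Kcnq subfamilies were open in replicate 1 and 27 in replicate 2, with a median signal of 1.36 and 1.57. In the Kcna subfamily, the Shaker-type channels of axons and terminals, 8 of 8 were open in both libraries. The A-type channel gene Kcna4 was highest in the mean of the libraries with 1.68 and 2.22. Close to it were the axonal channel genes Kcna1 with 1.65 and 2.17 and Kcna2 with 1.59 and 1.86, and Kcna3, best known from lymphocytes, with 1.77 and 1.96. The order of these 4 genes differed between the libraries, so they cannot be ranked. Kcna5, the atrial channel gene, was lowest with 0.568 and 0.710. Kcna6 had 1.23 and 1.34, Kcna7 0.875 and 1.18 and Kcna10 0.583 and 0.812. Kcna1, Kcna5 and Kcna6 lie side by side on chromosome 6 and Kcna2, Kcna3 and Kcna10 on chromosome 3, so their 20 kb flanks are close to each other.

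The delayed rectifier gene Kcnb2 had 1.56 and 1.65. Among the Kcnc genes, which serve fast-spiking neurons, Kcnc1 had 1.90 and 2.19, and Kcnc2 was low in both with 0.495 and 0.474. Kcnc4 had 1.16 and 0, the strongest promoter signal of any member seen in 1 library alone. Its peak in replicate 1 was 557 bp wide, was centred 710 bp inside the gene. A weaker peak of 0.750 lay within 250 bp of the annotated start in that library. The authors also deposited a table of how often each base was cut, which lists bases at a false discovery rate below 0.05. In it, 769 of the 1001 bases of the Kcnc4 start window were listed in replicate 1 and 0 in replicate 2. The Kcnd genes, which carry the somatodendritic A-type current, were even: Kcnd2 had 1.27 and 1.56, Kcnd1 1.22 and 1.29 and Kcnd3 1.11 and 1.05.

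The Kcnh genes, relatives of ether-a-go-go, were open at 8 of 8 in both libraries and spanned a wide range. Kcnh1 was highest with 4.63 and 6.18, Kcnh2, the gene of the cardiac and neuronal ERG channel, had 3.68 and 3.12, Kcnh4 3.21 and 3.38 and Kcnh3 2.40 and 2.01. Kcnh5 had 1.44 and 1.58, Kcnh6 0.849 and 1.13, Kcnh7 0.771 and 1.22 and Kcnh8, the lowest, 0.589 and 0.654. The Kcnh1 promoter is shown because it carried the strongest signal of a voltage-gated pore gene. The sequence is from RefSeq on GRCm38.p6, 250 bases before to 50 after the start, 5′ to 3′ on the plus strand at chr1:192190527-192190826. Capitals mark bases under a footprint, a short stretch protected from DNase I, in both libraries.
Kcnh1 promoter: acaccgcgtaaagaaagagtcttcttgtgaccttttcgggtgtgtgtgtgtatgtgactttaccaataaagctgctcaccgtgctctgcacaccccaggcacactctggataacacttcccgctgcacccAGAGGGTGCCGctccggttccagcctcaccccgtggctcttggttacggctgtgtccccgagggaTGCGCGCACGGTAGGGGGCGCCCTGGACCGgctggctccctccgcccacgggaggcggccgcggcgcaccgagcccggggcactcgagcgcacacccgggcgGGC
The 300 bases held 27 CpG dinucleotides, and 44 bases in 3 runs lay under footprints of both libraries.

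Among the Kcnq genes, whose products carry the slow M-current and related currents, the M-current genes Kcnq3 and Kcnq5 were open in both libraries. Kcnq3 had 2.83 and 2.88 and Kcnq5 1.69 and 1.80. Kcnq1, the cardiac and epithelial channel gene, had 0.469 and 0 and was thus open in replicate 1 alone.

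The electrically silent subunits, which form channels only with Kcnb pores, were open at 8 and 7 of 10 promoters with a median of 0.737 and 1.01. Those shares were 80% and 70%, beside 66.6% and 63.8% of all genes. Kcnf1 led with 2.11 and 2.44, followed by Kcnv1 with 1.69 and 1.87 and Kcns2 with 1.33 and 1.80. Kcng1 had 0.740 and 0.902, Kcng2 0.813 and 1.00, Kcng3 0.734 and 1.01 and Kcns3 0.714 and 1.09. Kcns1 was open in replicate 1 alone with 0.432. Kcng4 and the photoreceptor gene Kcnv2 were closed in both.

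Of the calcium- or sodium-activated pore genes, 7 of 8 were open in both libraries, with a median of 1.62 and 2.08. Small-conductance calcium-activated channels shape the afterhyperpolarization, and their gene Kcnn2 had 5.55 and 7.01, second to Kcnab2 among all members. Kcnn3 had 4.33 and 4.73 and Kcnn1 1.78 and 2.35, whereas Kcnn4, the gene of the red cell and lymphocyte channel, was closed in both. Kcnma1, which encodes the large-conductance BK pore, had 1.58 and 1.94. Of the sodium-activated channel genes, Kcnt2 had 1.66 and 2.22, and Kcnt1 had 1.05 and 1.15. Kcnu1, known as a sperm channel gene, had a weak peak of 0.375 and 0.440 in both libraries.

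The inward rectifier subfamily held both strong and closed promoters. Of 15 Kcnj promoters, 12 were open in replicate 1 and 11 in replicate 2, with a median of 0.776 and 0.823. Those shares were 80% and 73.3%, beside 66.6% and 63.8% of all genes. Kcnj2, a strong rectifier, was highest with 4.34 and 4.76, and the related Kcnj4 had 1.53 and 1.96, Kcnj12 0.776 and 0.823 and Kcnj14 no peak in either. The astrocyte channel gene Kcnj10 had 2.32 and 2.46, and its partner Kcnj16 0.484 and 0.609. Of the G-protein-gated rectifiers, which slow neuronal firing, Kcnj6 had 2.11 and 2.46, Kcnj9 1.74 and 1.62 and Kcnj3 1.35 and 1.93, while the atrial subunit gene Kcnj5 had 0.375 and 0.372. Of the pores of the ATP-sensitive channels, the neuronal and beta cell gene Kcnj11 had 2.16 and 2.48 and the vascular gene Kcnj8 0.594 and 0.609. The kidney channel gene Kcnj1 and Kcnj15 had no peak, and Kcnj13, known from choroid plexus and retinal pigment epithelium, had 0.271 in replicate 1 alone.

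The Kcnj10 and Kcnj1 promoters are shown as an open and a closed member of that subfamily, again from RefSeq on GRCm38.p6 and on the plus strand, at chr1:172340960-172341259 and chr9:32393735-32394034. Here capitals mark CpG dinucleotides.
Kcnj10 promoter: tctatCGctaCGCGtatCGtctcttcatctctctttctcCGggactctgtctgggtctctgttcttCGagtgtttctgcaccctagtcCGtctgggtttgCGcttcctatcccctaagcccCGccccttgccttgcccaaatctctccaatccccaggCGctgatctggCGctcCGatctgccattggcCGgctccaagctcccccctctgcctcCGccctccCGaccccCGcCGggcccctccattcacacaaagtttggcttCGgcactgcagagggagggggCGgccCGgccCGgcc
Kcnj1 promoter: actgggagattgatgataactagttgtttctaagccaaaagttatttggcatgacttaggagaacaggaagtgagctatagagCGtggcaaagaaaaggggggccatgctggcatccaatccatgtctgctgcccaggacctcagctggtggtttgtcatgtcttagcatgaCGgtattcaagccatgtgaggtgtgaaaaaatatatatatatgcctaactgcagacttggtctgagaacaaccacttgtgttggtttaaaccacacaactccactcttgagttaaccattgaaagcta
Kcnj10 held 21 CpG dinucleotides in 300 bases and Kcnj1 held 2. Peaks covered 240 and 261 bases of the Kcnj10 window in the 2 libraries and none of the Kcnj1 window.

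K2P genes, whose channels give the background leak, were open at 11 and 10 of 14 promoters, with a median of 1.05 and 1.34. Those shares were 78.6% and 71.4%, beside 66.6% and 63.8% of all genes. Kcnk10, a mechanosensitive channel gene, was highest with 2.34 and 2.59, its relative Kcnk2 had 1.38 and 1.67, and Kcnk4 had 0.958 and 1.43. Kcnk5 had 1.63 and 2.26, Kcnk12 1.42 and 1.88, Kcnk13 1.24 and 1.45 and Kcnk1 1.14 and 1.73. Of the acid-sensitive pair, Kcnk3 had 1.20 and 1.24 and Kcnk9 0.490 and 0, so Kcnk9 was open in replicate 1 alone. Kcnk15 lay lower with 0.875 and 0.902, as did Kcnk6 with 0.760 and 0.857. Kcnk18, known from sensory neurons, Kcnk16, known from the pancreas, and Kcnk7, whose product forms no known working channel, had no peak in either library.

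Auxiliary genes were open at 11 and 10 of 16 promoters, 68.8% and 62.5%, near the 66.6% and 63.8% of all genes. Their subfamilies were uneven. The Kcnip genes, which encode calcium-binding partners of Kcnd pores, were open at 4 of 4: Kcnip4 had 2.19 and 2.74, Kcnip3 1.73 and 1.75, Kcnip2 1.05 and 1.26 and Kcnip1 0.672 and 0.992. The Kcnab genes, for cytoplasmic beta subunits of Kcna pores, were open at 3 of 3, with Kcnab2 at 10.2 and 14.6, Kcnab3 at 2.35 and 2.30 and Kcnab1 at 0.802 and 0.880. By contrast, 3 of 5 Kcne genes, for single-pass subunits known mainly from heart and epithelia, had no peak: Kcne1, Kcne2 and Kcne4. Kcne3 had 0.557 and 0.891, and Kcne1l had 0.349 in replicate 1 alone. Among the BK beta subunits, the neuronal gene Kcnmb4 had 1.16 and 1.50 and Kcnmb2 0.385 and 0.474, whereas the smooth muscle gene Kcnmb1 and Kcnmb3 were closed in both.

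The Kcnab2 promoter was the strongest of all members, at percentile 99.5 of all genes by the mean of the libraries, with Kcnn2 next at 86.5 and Kcnh1 at 81.5. A start site of Nphp4, a cilium gene, lay within 500 bp of the Kcnab2 peak, and no other member's strongest promoter peak had the start of another coding gene so near. The signal at Kcnab2 therefore cannot be told apart from that of the Nphp4 start. The sequence is shown because both libraries held footprints over much of it: RefSeq, GRCm38.p6, minus strand, chr4:152477500-152477799, with bases under footprints of both libraries in capitals.
Kcnab2 promoter: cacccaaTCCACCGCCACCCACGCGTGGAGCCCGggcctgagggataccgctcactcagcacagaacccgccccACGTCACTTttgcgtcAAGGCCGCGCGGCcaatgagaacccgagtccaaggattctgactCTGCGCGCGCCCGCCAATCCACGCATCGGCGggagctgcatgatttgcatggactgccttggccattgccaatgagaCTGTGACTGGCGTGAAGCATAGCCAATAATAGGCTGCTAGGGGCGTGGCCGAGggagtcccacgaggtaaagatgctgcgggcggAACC
Footprints of both libraries covered 137 of the 300 bases in 6 runs. RefSeq promoters of this kind were found for 68 of the 93 members.

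Closed promoters of potassium channel genes were all poor in CpG. The CpG ratio, the observed number of CpG dinucleotides over that expected from the C and G content, was taken in the 1001 bases around the annotated gene start. All 14 members closed in both libraries had a ratio from 0.119 to 0.286. Of the 67 members with a ratio of 0.3 or more, 0 were closed in both libraries, where 10.4% of the 14650 coding genes above that ratio were. Of the 26 members below 0.3, 12 and 10 were open, beside 20.1% and 17.1% of all genes of that range. The open ones included Kcnma1, with a ratio of 0.0783 at its annotated start, Kcne3 with 0.0683 and Kcna10 with 0.127. Since a gene is open if any start site is, a poor annotated start need not describe the start that was open. At Kcnma1 and Kcne3 no peak lay within 500 bp of the annotated gene start in either library. At Kcna10 a weak peak did in both, with 0.583 and 0.812, so there the poor start was itself counted as open. In the shorter peak list deposited for each library, Kcna10 had no promoter peak.

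The modest signal of the family lay mainly in its CpG-rich promoters. With ratios of 0.6 or more, the 36 members had a median signal of 1.47 and 1.80, and all 10077 coding genes had 3.91 and 4.36, although 36 and 34 of the members were open. Between 0.3 and 0.6, the 31 members had 1.23 and 1.43 and all genes 0.995 and 1.11. In that middle range the members were open at 100% and 90.3%, beside 72.8% and 67.7%. Genes were not matched here for how many start sites they have, a median of 2 per member and 4 per gene in the CpG-rich range.

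**Figure D2:**
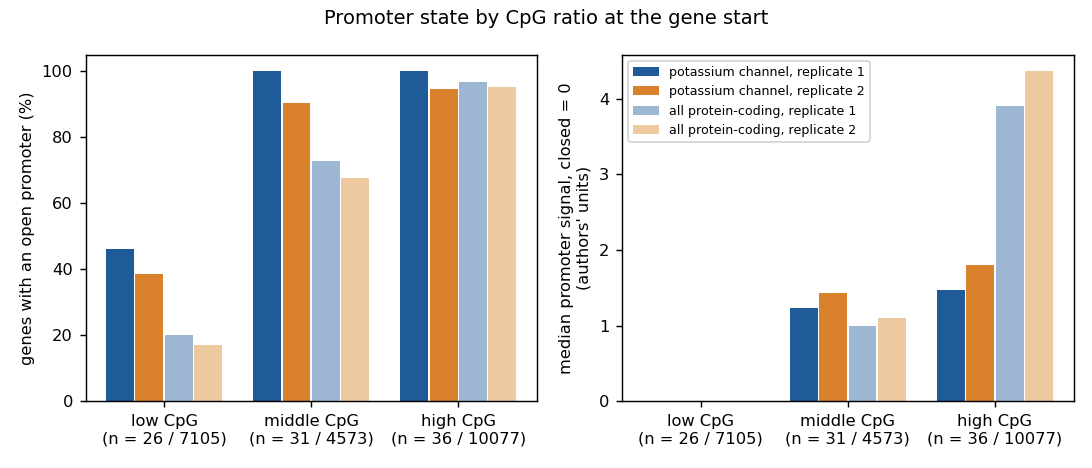
Share of genes with an open promoter (left, %) and median promoter signal with closed genes at 0 (right) by CpG ratio at the gene start: low below 0.3, middle from 0.3 to 0.6, high from 0.6. Dark bars are potassium channel genes, pale bars all protein-coding genes; in the high range most of both are open, with medians of 1.47 and 1.80 against 3.91 and 4.36.

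Closed promoters were also looked up in the cut-rate tables, where a listed base can mark cutting without a called peak. Of the 14 members without a peak in replicate 1, 0 had a base of their start windows listed in that library, and of the 21 without a peak in replicate 2, 1 had (4.76%). Of all closed coding genes, 2.48% and 2.31% had such a base, so with so few members these shares do not set them apart. The members open in replicate 1 alone had signals from 0.271 at Kcnj13 to 1.16 at Kcnc4.

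Many members have several promoters, and usually 1 of them was open. Start sites less than 1 kb apart were joined, which gave 198 start regions, and 55 of 93 members had more than 1 (59.1%, beside 56.4% of all coding genes). Peaks lay at 97 and 87 of these regions, and 12 members had more than 1 open in both libraries. Kcnma1 had 7 start regions, of which 1 was open, 9.63 kb inside the gene, with 1.58 and 1.94. Kcnk2 had 5, of which the third, 58.1 kb from the gene start, was open with 1.38 and 1.67. At Kcnn2, a pair of start regions 290.6 kb apart were open, the first with 2.62 and 2.33 and the second with 5.55 and 7.01. Kcnc1 was open at 3 of 3 regions: the first had 1.82 and 2.19, the second 1.55 and 1.69, and the third 1.90 and 1.91. Kcnip4 had peaks at 4 and 3 of its 6 regions, led by the first with 2.19 and 2.74, and Kcnt1 at 2 of 7, the first with 1.05 and 1.15 and the second with 0.641 and 1.11. So for Kcnma1 and Kcnk2 the annotated gene start itself was closed in both libraries.

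The strongest promoter peak of a member was chosen among peaks reaching within 500 bp of a start, which largely sets how close its centre lies. The centre of this peak lay within 250 bp of a start of the gene in 62 of 79 members in replicate 1 and 55 of 72 in replicate 2. It lay upstream of the nearest start in 57 and 55. These positions were not counted for all genes, so they are a description only. A footprint lay in the strongest peak of 79 of 79 and 68 of 72 open members, with a median of 5 and 4 footprints per peak. Some footprint lay in the start windows of 79 and 69 of the 93 members, 84.9% and 74.2%, where 65.6% and 61.7% of all genes had 1 or more. Over all genes, 14496 and 13889 were open and 14263 and 13424 had such a footprint. Footprints thus followed open promoters in general and do not set the members apart.

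The libraries ordered the members alike. Across the 72 members open in both, Pearson's correlation of log2 promoter signal was 0.977, a description across genes that share the same libraries. Replicate 2 had the higher value in 64 of the 72. Over all genes open in both, the median log2 ratio of replicate 1 to replicate 2 was -0.17. After that median was subtracted, the SD of the log2 ratio was 0.21 over members and 0.23 over all genes. The 5 members farthest from 0 were Kcne3 at -0.50, Kcnh7 at -0.49, Kcns3 at -0.44, Kcnh3 at 0.43 and Kcnk1 at -0.42. Differences of this size set how finely the genes above can be ranked.

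**Figure D3:**
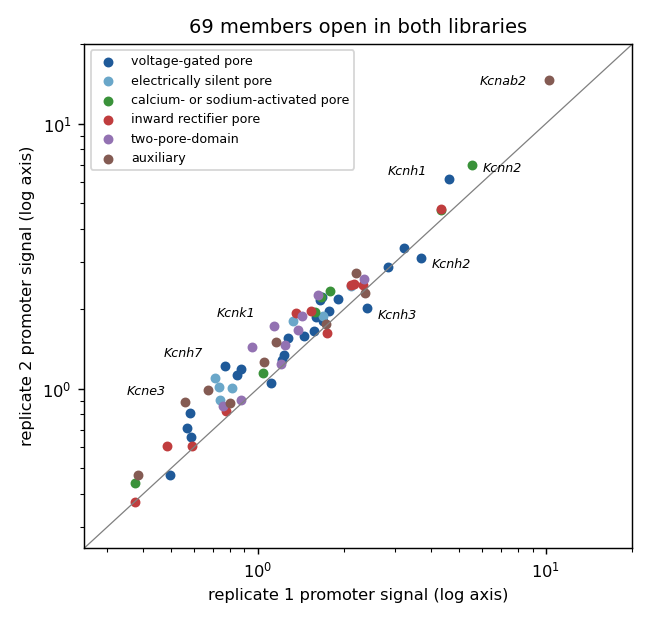
Promoter signal in replicate 1 against replicate 2 for 69 members open in both (both axes log, authors' units, grey line at equality), coloured by class. Most points lie just above the line, with replicate 2 higher in 62 of 69.

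Potassium channel loci also held open sites away from start sites. A distal peak is one whose centre is over 1000 bp from every annotated start site. Density is given per 100 kb of region, the region being the gene body plus flanks of 20 kb. Distal peaks were found at 86 and 83 of 93 members, where 73.9% and 68.0% of all genes had 1 or more. The median density was 4.31 and 3.49 over members and 2.38 and 1.97 over all genes, and 65 members in each library lay above the median of all genes. Regions of members were longer, with a median of 72.0 kb beside 57.4 kb. There were 540 and 424 different distal peaks in these regions, 5 and 8 of them in more than 1 member's region. Of the assignments of peaks to members, 52.7% and 54.4% were intronic, 8.62% and 10.2% exonic, 16.7% and 16.2% in the upstream flank and 22.0% and 19.2% in the downstream flank. A peak of the other library overlapped 61.7% and 79.0% of them, beside 59.3% and 79.4% of all distal peaks.

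Distal density varied both between and within subfamilies. The Kcnc genes had the highest median of the 6 subfamilies compared, 10.7 and 6.13, followed by Kcnq with 6.10 and 4.11 and Kcna with 4.51 and 3.55. Kcnj had 4.31 and 2.87, Kcnk 3.92 and 3.21, the 44 members of other subfamilies 4.59 and 3.90, and Kcnd, with 3 genes, 1.44 and 1.62. Pooled in those others, the 4 Kcnn genes had 9.16 and 8.02, above Kcnc in replicate 2. At Kcnc1, 10 and 4 distal peaks were found and 2 in each library were held by both. The Kcnc median in replicate 1 thus rests partly on peaks without a partner. Within Kcnc the spread was wider than between these medians, from 1.27 and 1.70 at Kcnc2 to 16.3 and 13.1 at Kcnc4. Median region length also differed among subfamilies. It was 71.7 kb for Kcnc, 340.3 kb for Kcnq, 46.9 kb for Kcna, 66.7 kb for Kcnj, 76.3 kb for Kcnk and 261.7 kb for Kcnd. How density depends on region length was not tested. No distal peak lay at Kcna7, Kcnab3, Kcnd1 or Kcng4 in either library.

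**Figure D4:**
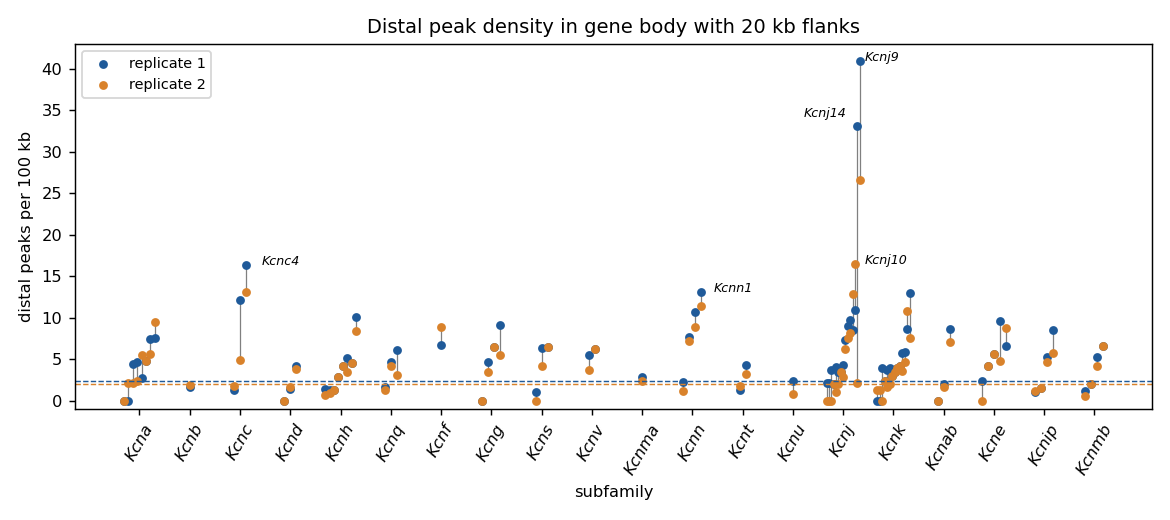
Distal peaks per 100 kb of region (gene body plus 20 kb flanks), by subfamily for 89 members; each grey line joins the libraries of 1 gene and dashed lines mark the medians of all protein-coding genes (2.38 and 1.97). Kcnj9 is high in both libraries (41.0 and 26.6), whereas Kcnj14 is high in replicate 1 alone (33.1 and 2.07).

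The densest locus in both libraries was that of Kcnj9 (chromosome 1, 172320501 to 172329318), a G-protein-gated rectifier gene, with 20 and 13 distal peaks and 41.0 and 26.6 per 100 kb, at percentile 99.9 of all genes by the mean. Kcnj10 is its neighbour (chromosome 1, 172341210 to 172374085), with 11.0 and 16.5, and their flanks overlap. Of the 32 peaks of any kind in the Kcnj9 region in replicate 1, 12 overlapped no peak of replicate 2, and 5 of 26 in replicate 2 overlapped none of replicate 1. With peaks held by both libraries only, Kcnj9 kept 9 distal peaks in each. Most peaks of this region lay in the downstream flank in both libraries, past the end of a gene of 8.82 kb. The strongest distal peak was 19077 bp from the Kcnj9 start and 1530 bp from an annotated start outside Kcnj9. The density of Kcnj9 thus describes its flank more than the gene itself. Kcnj14 (chromosome 7, 45816460 to 45824782) had 16 and 1 distal peaks, a density of 33.1 and 2.07. There 17 of 21 peaks of replicate 1 had no partner in replicate 2, with a median signal of 0.448, and 1 distal peak was held by both. Its density therefore rests on replicate 1 alone, while its promoter was closed in both.

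The next densities were those of Kcnc4 with 16.3 and 13.1, Kcnn1 with 13.1 and 11.4, Kcnj11 with 8.54 and 12.8, Kcnk12 with 13.0 and 7.59 and Kcnk15 with 8.68 and 10.8. Kcnn4 had 10.6 and 8.86 although its promoter was closed, and Kcnh4 had 10.1 and 8.39. These genes were picked for the highest mean density among members, so their place above the medians of all genes follows from that choice. Kcnc4 kept 7 distal peaks held by both libraries, a density of 11.4, so its many sites were shared even though its promoter peak was not. Long genes had many sites at low density: Kcnma1 had 22 and 18 distal peaks over 765.1 kb and Kcnip4 12 and 13 over 1175 kb.

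By role, distal sites were found at genes of each class. Among voltage-gated genes, Kcnh1 had 10 and 10 distal peaks, a density of 2.78 and 2.78. The M-current gene Kcnq3 had 16 and 14 with 4.70 and 4.11, and Kcnq5 10 and 8 with 1.66 and 1.33. The A-type genes Kcnd2 and Kcnd3 lie in long regions of 554.3 and 261.7 kb. Kcnd2 had 8 and 9 distal peaks with 1.44 and 1.62, and Kcnd3 11 and 10 with 4.20 and 3.82. Among the activated and rectifying pores, Kcnn2 had 10 and 5 with 2.19 and 1.09, Kcnn3 15 and 14 with 7.69 and 7.18, and Kcnj6 21 and 18 with 7.26 and 6.23. The leak channel gene Kcnk2 had 7 and 7 with 2.99 and 2.99 and Kcnk10 7 and 3 with 3.71 and 1.59. Of the auxiliary genes, Kcnab2 had 11 and 9 with 8.65 and 7.08, Kcnab1 6 and 5 with 1.94 and 1.62, and Kcnip2 1 and 1 with 1.56 and 1.56. Genes of this paragraph outside the naming rule were chosen after their values were seen.

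Of the 14 members with promoters closed in both libraries, 13 and 11 had distal peaks in their regions, 92.9% and 78.6%. Among all 93 members, 86 and 83 had them, and among all genes, open or closed, 73.9% and 68.0%. Of all coding genes with a CpG ratio below 0.3, the range of these 14, 44.8% and 50.3% had none. Closed genes were not counted separately, so these are unlike sets. Kcnj15 had 3 and 0 distal peaks, Kcnj1 6 and 5, Kcnk16 2 and 2, Kcnk18 2 and 2, Kcnk7 1 and 1 and Kcnn4 6 and 5. Of the auxiliary genes among them, Kcne1 had 3 and 3, Kcne2 3 and 4, Kcne4 1 and 0, Kcnmb1 1 and 1 and Kcnmb3 4 and 4. Kcnv2 had 3 and 2 and Kcng4 0 in both. These regions include flanks, so a distal peak there need not lie in the gene.

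**Figure D5:**
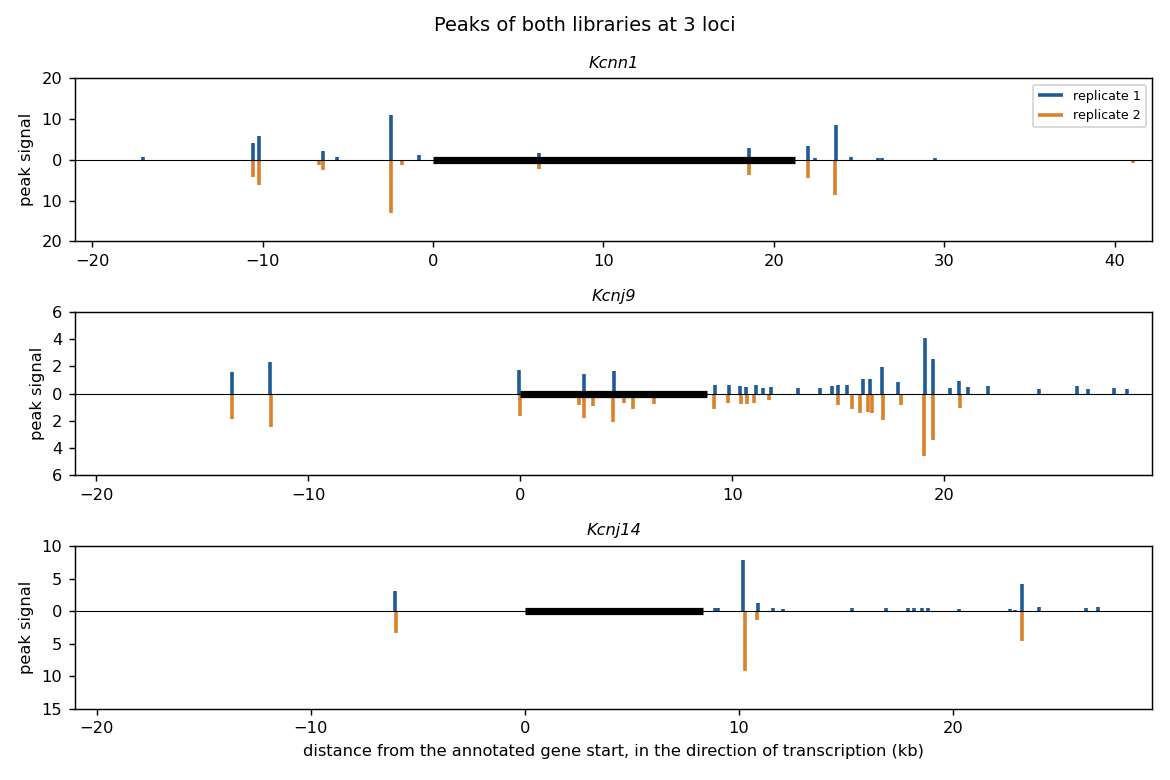
Peaks of replicate 1 (up, blue) and replicate 2 (down, orange) at Kcnn1, Kcnj9 and Kcnj14 by distance from the annotated gene start in kb; bar height is the peak signal and the black bar is the gene. At Kcnn1 the tallest peak, 11.0 and 13.1, stands upstream of the gene in both, at Kcnj9 runs of peaks follow the gene in both, and at Kcnj14 the run of weak peaks past the gene is in replicate 1 alone.

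The strongest single distal peak at any member lay upstream of Kcnn1, at 11.0 and 13.1, on chromosome 8 from 70865501 to 70865940. It was stronger than the Kcnn1 promoter itself, which had 1.78 and 2.35, and lay 2463 bp from the nearest annotated start. Of the 5 start regions of Kcnn1 only the second, 6.25 kb inside the gene, was open, so the annotated gene start next to this peak was closed in both libraries. Other strong peaks were an intronic peak of Kcnab2 with 4.46 and 5.55 and a peak in the downstream flank of Kcnn3 with 3.66 and 5.79. Flanks can reach into neighbouring genes. Flanking peaks were that of Kcnj14 with 4.16 and 4.66, that of Kcnj9 with 4.07 and 4.62, and those upstream of Kcnj4 with 3.84 and 4.59 and of Kcnh4 with 3.13 and 4.59. An intronic peak of Kcnip2 had 3.27 and 5.15. A second peak at Kcnn1, in its downstream flank, had 3.34 and 4.50. Each of these peaks was found in both libraries.

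The Kcnn1 peak is shown because it was the strongest distal peak and held footprints in both libraries, again in capitals. Its middle 300 bases are read from GRCm38.p6 on the minus strand, the strand of the gene, at chr8:70865571-70865870.
Kcnn1 upstream peak: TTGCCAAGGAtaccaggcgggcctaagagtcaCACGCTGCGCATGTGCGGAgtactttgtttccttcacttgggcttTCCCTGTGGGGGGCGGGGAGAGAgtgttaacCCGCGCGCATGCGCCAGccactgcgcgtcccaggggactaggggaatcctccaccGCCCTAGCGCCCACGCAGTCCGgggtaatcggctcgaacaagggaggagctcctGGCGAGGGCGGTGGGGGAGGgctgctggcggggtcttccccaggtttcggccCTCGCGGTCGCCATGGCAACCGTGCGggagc
The Kcnn1 sequence held 26 CpG dinucleotides, and 137 bases in 7 runs lay under footprints of both libraries. It contained the palindromic NRF1 motif from base 113, with all 10 bases under footprints of both libraries. It also contained an X-box core of the kind bound by RFX factors, GTCGCCATGGCAAC from base 276, with all 14 bases under footprints of both libraries. This core was looked for after distal sequences had been read. In the 300 bases around the centre of distal peaks of replicate 1, the core occurred in 7 of 540 peaks at members (1.30%), among them Kcnc1, Kcnd3, Kcnj6, Kcnn1 and Kcns2, and in 0.993% of all 69591. The NRF1 motif occurred in 1 of 540, the Kcnn1 peak, and in 0.122% of all. A match is a description of the letters and not of a bound factor.

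At the gene starts, exact motif matches on both strands were counted within 500 bp. The SP/KLF core GGGCGG occurred at 68 of 93 members (73.1%, beside 60.9% of all genes), and 49 and 29 of its 216 sites were at least 50% covered by footprints. The proneural E-box CAGCTG occurred at 46.2% of members and 41.7% of all genes. Other motifs were rare: the AP-1 motif TGANTCA at 14.0% and 18.8%, the MEF2 motif at 8.60% and 11.0%, and the cAMP response element TGACGTCA at Kcna5 and Kcnf1, 2.15% of members and 3.35% of all genes. Neither the NRF1 motif nor the EGR motif GCGTGGGCG occurred at a member, where 1.70% and 2.00% of all genes had them. The RE1 motif of REST, a repressor of neuronal genes, occurred at Kcnt1 alone among members and at 0.464% of all genes.

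Partners of these channels and related channels outside the naming pattern were examined as a list of 18 genes. Promoters of 16 and 15 of 18 were open, beside 66.6% and 63.8% of all protein-coding genes. Of the membrane partners of Kcnd pores, Dpp6 had 1.83 and 2.03 and Dpp10 1.16 and 1.51. Of the genes whose products organize Kcna channels on axons, Cntnap2 had 1.24 and 1.84 and Adam22 3.68 and 4.97, the secreted partner gene Lgi1 had 1.94 and 2.50, and Ank3, which anchors Kcnq channels at the axon initial segment, had 1.34 and 2.04. Amigo1, whose product binds Kcnb pores, had 0.953 and 1.16. Of the sulfonylurea receptor genes, the partners of Kcnj11 and Kcnj8, Abcc8 had 0.969 and 1.11 and Abcc9 no peak, while Kcnj11 itself had 2.16 and 2.48 and Kcnj8 0.594 and 0.609. Of the BK partner genes, Lrrc26 had 1.45 and 1.94, Lrrc52 0.740 and 0.620 and Lrrc38 0.432 and 0.665, and Lrrc55 had 0.391 in replicate 1 alone. Of the related cation channel genes, Hcn2 had 1.23 and 1.15, Hcn3 1.59 and 1.31 and Hcn4 1.73 and 2.26. Kcnrg, a channel regulator gene that the pattern leaves out, was closed in both. The distal densities of Amigo1, 52.2 and 8.70, and of Lrrc26, 41.2 and 2.42, differed widely between the libraries, as at Kcnj14.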

How the data were processed

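Peaks, footprints and cut-rate tables from DNase-seq of 2 libraries were used. Per the text files deposited with them, they use mm10 coordinates and were made separately for each library from its alignments. Aligner and callers were not given in the sources used here. Deposited peak signal, set by the authors, has no stated scaling and was used within a library and, between libraries, after centring on the median log2 ratio. The deposited false discovery rate of the cut rate, a p-value type of measure by the authors, and the footprint value, 0.01 in all rows, were not used to rank.

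The longer peak list of each library was intersected with GENCODE M21 (Python 3.11.15, pandas 2.3.3, pysam 0.24.0, bedtools 2.31.1), and sequence came from GRCm38.p6. Overlaps needed at least 1 bp. The overlap code was tested on simulated data and gave 0 differences from a direct search. There was no test: counts and medians stand beside those of all genes. The members and lists were chosen with earlier results of these data known. Named were, per subfamily, the highest and lowest promoter signal, the 12 highest promoters, the 10 highest distal densities and strongest distal peaks, the 5 largest differences between libraries, all members not open in both and all partners, except a few genes that are not reported here singly, though counts and medians include them. Further members were named to cover the subfamilies, after their values were seen. Alternatives were other peak lists, windows, starts, flanks and peak numbers.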

Additional observations from a re-analysis of the deposited data

How the results depend on the processing

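Counts of open members stayed within 1.5 times the reported ones under all 20 alternatives run for them, and 54 of 56 did for subfamilies. With 79 and 72 of 93 members open, a rise past that bound was impossible. Only a large fall could therefore count as a change in the number of open members. With the strongest 50% of peaks, 64 and 60 members were open, beside 60.9 and 57.8% of all genes, so that the distance from all genes shrank, and 7 Kcnj genes, not 11, were open in both. With the shorter peak list 69 and 63 were open, and with only the annotated gene start 66 and 63. Without 1 replicate, open Kcnq genes numbered 3 to 5. Over single members, 56 of 558 values changed, most with the strongest 50% of peaks (18 members). Distal density was less stable: 42 of 70 alternative values of mean distal density moved, and 9 of 14 of the median over members. Median distal density moved by more than the SD between replicates, in replicates 1 and 2, to 2.31 and 1.97 with the shorter list, to 3.46 and 2.33 over 2000 bp from every start, to 2.39 and 1.56 with the strongest 50% of peaks and to 3.05 and 2.89 with shared peaks. With the gene body alone it was 3.74 and 2.82. Over all genes these medians were 1.27 and 0.721, 1.99 and 1.58, 0.978 and 0, 1.66 and 1.67 and 0 and 0, below the members' in each. The causes were not tested. No paired analysis was possible because there is 1 group. Depth is unknown, so a closed promoter is one without a called peak.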
